A study of Homo sapiens with 4 samples.

Results

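The genes of the cytosolic ribosomal proteins were examined in MHCC97H, an established human hepatocellular carcinoma (HCC) cell line, with and without knockdown of UBXN1. They were taken by name, as the protein-coding genes called RPL or RPS plus a number, with RPSA, RPLP0, RPLP1 and RPLP2. This gave 87 genes among the 61541 of the count table, of which 46 encode canonical large subunit proteins, 31 encode canonical small subunit proteins and 10 are paralogs such as RPL22L1. The 10 RPS6K kinase genes, 3 readthrough genes that join a ribosomal protein gene to a neighbour, RPS19BP1 and RPSA2 were left out. Control cells carried a control hairpin (shCon) and knockdown cells a short hairpin RNA against UBXN1 (shUBXN1), with 2 libraries per group. The study's methods place hairpins in the pLKO.1 vector, delivered by lentivirus, while the series text speaks of transfection, and they name shRFP as the control where the labels name shCon. Which UBXN1 hairpin these cells carried is not given in the sources used here, nor is any further treatment or a time after infection. No source says that replicates were separate cultures, so p-values measure only the spread between these libraries. The comparison asks which mRNAs change in this line when UBXN1, a UBX-domain protein that binds ubiquitin and the p97 ATPase, is reduced.

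The cytosolic ribosome joins a small subunit, which reads the mRNA, to a large subunit, which forms the peptide bonds and guides the new chain through an exit tunnel. Its proteins are needed in near-equal numbers and their mRNAs are among the most abundant of a dividing cell. Most of these mRNAs start with a C followed by a run of pyrimidines, the 5′ terminal oligopyrimidine (TOP) motif, through which mTORC1 and LARP1 control their translation and stability. Surplus ribosomal proteins are tagged with ubiquitin and degraded, and RPL5 and RPL11, bound to the 5S rRNA, can hold back the p53 ligase MDM2.

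The libraries held 23373700 to 27380508 counts. UBXN1 itself lay at 67.1 and 77.3 CPM (counts scaled to a common library size) in shCon and at 16.8 and 18.5 CPM in shUBXN1, 4.09-fold lower (log2 fold change -2.03, SE 0.096, edgeR adjusted p = 9.98e-10). Counts on the mitochondrial genome made up 5.28% and 5.59% in shCon and 7.43% and 8.27% in shUBXN1. Of 11 hepatocyte and HCC markers, 10 had at least 10 counts in every library, against 1 of 5 leukocyte markers (CD68), 2 of 4 endothelial, 1 of 5 stellate and fibroblast and 0 of 3 erythroid markers, and the T cell marker CD3E had 0 counts throughout. The summed level of the hepatocyte list was 5438 and 5487 TPM (counts scaled by gene length and library) in shCon and 4656 and 5071 TPM in shUBXN1, and that of the endothelial list 15.2 TPM in both shCon libraries and 31.9 and 32.1 TPM in shUBXN1. Their part in the results was not tested. In bulk RNA, less of an mRNA per cell and fewer of the cells that hold it cannot be told apart.

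Ribosomal protein mRNAs were mostly lower in shUBXN1, by small amounts. Of the 87 genes, 85 passed edgeR's filter on low counts, and RPL10L and RPL3L did not. A gene was called at an adjusted p under 0.05, from the quasi-likelihood F of edgeR and adjusted by Benjamini and Hochberg's procedure over all 16863 genes tested. Of the 85, 57 fell, 4 rose and 24 passed in neither direction. Among all genes tested 28.2% fell and 28.0% rose, 56.2% in either direction. The median log2 fold change was -0.27 over the large subunit genes and -0.31 over the small subunit genes, against 0.016 over all genes tested. By the thresholds of the study's methods (a fold change of 2 with p below 0.05, here unadjusted), 2 members fell, RPL6 and 1 paralog, where 6.09% of all genes fell and 11.8% rose. The 2 paralogs on the Y chromosome, RPS4Y1 and RPS4Y2, are in these totals and no level is given for them.

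The count depended on the control libraries and on the level of the genes. Without shCon replicate 2, 32 members fell and 2 rose, where 20.9% of all genes fell and 20.2% rose. Without shCon replicate 1, 44 members fell and 2 rose, where 22.1% of all genes fell and 22.0% rose. After the trend of fold change on mean expression was removed, 42 members fell and 9 rose, beside 27.5% and 27.7% of all genes, and the medians were -0.10 (large) and -0.13 (small). The medians of both subunits were below 0 under all 18 alternatives. Of the 60 members called off the Y chromosome, 32 were called in the same direction under each of the 18.

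The subunits were also counted apart. Of the 46 large subunit genes 31 fell and 2 rose, and of the 31 small subunit genes 21 fell and 2 rose. Over all genes tested the shares were 28.2% and 28.0%. The log2 fold changes of the large subunit genes ran from -1.01 to 0.56, with quartiles of -0.43 and -0.15, and those of the small subunit genes from -0.83 to 0.23, with quartiles of -0.39 and -0.15. Falls larger than 0.5 on the log2 scale were found for 6 large and 4 small subunit genes. The standard error of a single gene was 0.072 to 0.090, against an SD between genes of 0.28 (large) and 0.25 (small). In 70 of the 85 members both shUBXN1 libraries lay below both shCon libraries, and in 4 both lay above, where the shares over all genes were 38.6% and 39.4%.

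RPL6 showed the largest fall of the canonical genes. It measured 851 and 863 CPM in shCon and 406 and 447 CPM in shUBXN1, and the groups lay far apart. The fall was 2.01-fold (log2 fold change -1.01, SE 0.082, edgeR adjusted p = 1.52e-07). RPL36 measured 117 and 128 CPM in shCon and 66.3 and 63.5 CPM in shUBXN1, 1.88-fold lower (SE 0.077 on the log2 scale, edgeR adjusted p = 2.17e-07). Both shUBXN1 libraries lay near the same level, well below the controls, although 17.6% of the exon bases of RPL36 are shared with another annotated gene on the same strand.

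RPL7 went from 1265 and 1298 CPM to 785 and 816 CPM (log2 fold change -0.68). RPL36A, which sits at the site where spent tRNA leaves, went from 276 and 288 CPM to 178 and 180 CPM (-0.65). RPL34, the least abundant of this group by count, went from 72.7 and 76.0 CPM to 52.0 and 44.4 CPM (-0.62). In each of these 3 genes the groups did not overlap, and the edgeR adjusted p lay between 3.44e-06 and 2.71e-05. Part of the RPL36A fall stood against a rise of the readthrough gene RPL36A-HNRNPH2, which shares its exons and went from 72.1 and 88.0 CPM to 96.6 and 107 CPM. With both summed, the log2 difference was -0.36.

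Among the small subunit genes, RPS20 of the head of the subunit fell most, from 521 and 555 CPM to 295 and 310 CPM (log2 fold change -0.83, SE 0.078, edgeR adjusted p = 6.01e-07). RPS3A measured 530 and 542 CPM in shCon and 323 and 334 CPM in shUBXN1 (-0.71, SE 0.076, edgeR adjusted p = 2.28e-06). For both genes the replicates lay close together and the groups far apart. RPS23, which lines the decoding centre, measured 455 and 485 CPM against 309 and 310 CPM (-0.60).

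RPS6, the substrate of the S6 kinases and a common readout of mTORC1 activity at the protein level, fell from 339 and 354 CPM to 231 and 244 CPM (log2 fold change -0.54). RPS10 fell from 337 and 362 CPM to 255 and 246 CPM (-0.48), and together with the readthrough gene RPS10-NUDT3, which covers it, by 0.51 on the log2 scale. RPS3, at the mRNA entry, fell from 622 and 637 CPM to 439 and 466 CPM (-0.48). The edgeR adjusted p of these 3 genes and RPS23 lay between 1.12e-05 and 1.26e-04, and their groups did not overlap.

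Only 4 members rose. RPL12 measured 402 and 431 CPM in shCon and 608 and 621 CPM in shUBXN1, 1.47-fold higher (log2 fold change 0.56, SE 0.078, edgeR adjusted p = 2.91e-05). RPLP1 measured 416 and 459 CPM against 610 and 648 CPM, 1.44-fold higher (0.53, SE 0.082, edgeR adjusted p = 8.11e-05). Both genes lay above the controls in both knockdown libraries, by far more than the gap between replicates. RPL12 and RPLP1 kept their rise under all 18 alternatives, with log2 fold changes of 0.51 to 0.74 and 0.46 to 0.71.

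RPS9 and RPS2 rose less, and their calls were less firm. RPS9 measured 294 and 303 CPM in shCon and 346 and 354 CPM in shUBXN1 (log2 fold change 0.23, SE 0.073, edgeR adjusted p = 0.0159). RPS2 measured 1519 and 1626 CPM against 1750 and 1929 CPM (0.23, SE 0.090, edgeR adjusted p = 0.0452). The groups did not overlap, but the shUBXN1 libraries of RPS2 lay further from each other than the groups did. Both calls were lost without shCon replicate 1 (edgeR adjusted p = 0.17 for RPS9 and 0.36 for RPS2), without shCon replicate 2 (0.25 and 0.33), with a GC correction (0.076 and 0.18) and with limma on log2(CPM + 1), where the adjusted p was 0.073 and 0.11. Each call was kept under 14 of 18 alternatives, and with the expression trend removed the log2 fold changes were 0.39 (RPS9) and 0.41 (RPS2). Of the exon bases of RPS2, 25.9% are shared with another gene on the same strand.

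The remaining 24 members passed in neither direction, and their values ranged from small falls to small rises. RPS19, a head protein mutated in Diamond-Blackfan anaemia, measured 395 and 409 CPM in shCon and 398 and 399 CPM in shUBXN1 (log2 fold change -0.01, SE 0.074). RPL13A, which hosts 4 snoRNA genes in its introns, measured 1213 and 1281 CPM against 1239 and 1267 CPM. In both genes the groups overlapped, and the sign of either value changed between alternatives. With the expression trend removed both passed as higher, RPL13A at 0.20 (adjusted p = 0.00492 by edgeR) and RPS19 at 0.16. RPL41, which encodes the shortest of the ribosomal proteins, measured 1027 and 1093 CPM against 908 and 943 CPM (-0.20, edgeR adjusted p = 0.0561) and passed the threshold under 9 of the 18 alternatives.

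Other members that stand for known functions fell. RPL11 measured 376 and 389 CPM in shCon and 260 and 264 CPM in shUBXN1 (log2 fold change -0.55, edgeR adjusted p = 2.16e-05). Its partner in the 5S particle, RPL5, measured 380 and 403 CPM against 302 and 328 CPM (-0.31, edgeR adjusted p = 0.00351). Neither gene's groups overlapped, and the call of RPL5 was lost without shCon replicate 2. RPS27A, made as a fusion with ubiquitin, measured 381 and 389 CPM against 297 and 300 CPM (-0.37, edgeR adjusted p = 6.7e-04).

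The smaller falls were less firm. RPSA, also known as the laminin receptor, measured 575 and 599 CPM against 495 and 528 CPM (log2 fold change -0.20, edgeR adjusted p = 0.0437), and 9 of 18 alternatives kept the call. RPL10, which closes the peptidyl transferase site and is the last large subunit protein to join, measured 914 and 941 CPM against 794 and 784 CPM (-0.23, edgeR adjusted p = 0.0214). It kept the call under 13 of 18 alternatives, and 50.5% of its exon bases lie opposite a gene on the other strand, which matters because the counting is not stated to use strand.

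Grouped by their place in the ribosome, with groups formed after the values were seen, the members moved unequally; all groups stand against 28.2% of all genes lower and 28.0% higher, or 27.5% and 27.7% with the expression trend removed. The P-stalk, which recruits the elongation factors, is built from RPLP0, RPLP1 and RPLP2 and stands on RPL12. RPL12 and RPLP1 rose, whereas RPLP0 measured 1635 and 1654 CPM in shCon and 1438 and 1563 CPM in shUBXN1 (log2 fold change -0.13, edgeR adjusted p = 0.212) and RPLP2 measured 391 and 408 CPM against 357 and 387 CPM (-0.10, edgeR adjusted p = 0.287). RPLP0 and RPLP2 lay slightly lower in both knockdown libraries but did not pass the test, and both values turned positive once the expression trend was removed. Around the tunnel exit 7 of 8 genes fell, from RPL26 (-0.49) to RPL31 (-0.21), and RPL23A at -0.07 did not pass. Pseudogenes of RPL23A held more counts than the gene in each library, with 8639 against 6736 in shCon replicate 1. How reads were divided between them is not given. With the expression trend removed, RPL26 (-0.31) and RPL35 (-0.21) kept the call, RPL17, RPL19, RPL22, RPL31 and RPL39 lost it at -0.083 to -0.046, and RPL23A was 0.083. At the mRNA entry RPS3 fell while RPS2 and RPS9 rose. In the head of the small subunit 9 of 14 genes fell, 0 rose and the median was -0.32 with all libraries and no trend removed. With the expression trend removed 8 of the 14 fell and 2 rose, RPS19 among the latter.

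The start sequences of members are shown because 3 of the 4 genes that rose carry a TOP-like run at a listed start, as do many of the genes that fell. RefSeq's promoter table for GRCh38.p14 held 86 windows for 70 of the 87 members. A C followed by at least 4 pyrimidines at the annotated start, read on the gene's own strand, was found in 48 of these windows, 1 for each of 48 members, and in 4.07% of all 35116 windows of the table. The 30 bases around the start are given 5′ to 3′, 15 on each side, with the pyrimidine run from the C in capitals. Genes that rose are RPL12 (chr9:127451392-127451421, minus strand), RPLP1 (chr15:69452803-69452832, plus) and RPS9 (chr19:54200843-54200872, plus), while RPS2, the other gene that rose, is among the 17 members with no window in the table.
RPL12: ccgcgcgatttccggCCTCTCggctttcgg
RPLP1: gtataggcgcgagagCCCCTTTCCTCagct
RPS9: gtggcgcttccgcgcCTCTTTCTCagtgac
Genes that fell are RPL36 (chr19:5690280-5690309, plus), RPS3A (chr4:151099613-151099642, plus), RPS23 (chr5:82278340-82278369, minus), RPS6 (chr9:19380222-19380251, minus) and RPL11 at the second of its starts (chr1:23691791-23691820, plus).
RPL36: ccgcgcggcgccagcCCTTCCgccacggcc
RPS3A: cgactcccacttccgCCCTTTTggctctct
RPS23: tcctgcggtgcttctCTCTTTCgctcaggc
RPS6: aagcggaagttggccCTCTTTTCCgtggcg
RPL11: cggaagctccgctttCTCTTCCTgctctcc
RPS19 did not pass the test (first start, chr19:41860240-41860269, plus), and RPL6, with the largest fall, has no such run at either start of the table (chr12:112409271-112409300, minus, shown).
RPS19: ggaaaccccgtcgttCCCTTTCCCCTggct
RPL6: ggggagacggcgcgtgcactgtgttcctgg
Of the 46 canonical genes with the run, 30 fell and 3 rose, and the median log2 fold change was -0.25. Of the 16 canonical genes in the table without it, 12 fell and 0 rose, with a median of -0.25. Both counts stand against 28.2% of all genes lower and 28.0% higher. No match means only that these letters are absent at the listed start.

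Of the 6 paralogs tested off the Y chromosome 4 fell and 0 rose, where 28.2% of all genes fell and 28.0% rose. The median log2 fold change of the 6 was -0.45. RPL26L1 measured 26.0 and 25.1 CPM in shCon and 12.6 and 13.4 CPM in shUBXN1 (-0.97, SE 0.106, edgeR adjusted p = 2.76e-06), about 1.96-fold lower. RPL7L1, related to a yeast factor of large subunit assembly, measured 161 and 150 CPM against 85.0 and 98.7 CPM (-0.76, SE 0.084, edgeR adjusted p = 3.29e-06). RPL22L1 measured 13.8 and 14.9 CPM against 8.61 and 9.23 CPM (-0.68, SE 0.131, edgeR adjusted p = 4.91e-04). In each of the 3 the knockdown libraries lay well below the controls.

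RPS27L, a p53 target, measured 41.9 and 42.9 CPM against 36.2 and 37.1 CPM (log2 fold change -0.21, edgeR adjusted p = 0.0375), a call kept under 7 of 18 alternatives. RPL39L measured 21.6 and 24.5 CPM against 18.4 and 21.1 CPM (-0.22, edgeR adjusted p = 0.099), and RPL36AL 85.4 and 92.0 CPM against 81.3 and 82.4 CPM (-0.12, edgeR adjusted p = 0.204). Neither passed. In each gene both shUBXN1 libraries lay below both shCon libraries, as they did in 38.6% of all genes tested. RPL3L, the form of striated muscle, stood at 0.043 to 0.162 CPM, and RPL10L, the form of testis, had 0 counts in all 4 libraries.

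Set against the canonical gene in the same library, per kilobase of the deposited gene length, the paralogs split. RPL22L1 stood at 11.9% and 12.7% of RPL22 in shCon and at 8.69% and 9.45% in shUBXN1, and RPL26L1 at 3.49% and 3.27% of RPL26 against 2.25% and 2.61%. The deposited length of RPL22L1 is 545 bases against 1902 bases for its canonical GENCODE transcript, which scales its percentages alike in all libraries and leaves the difference of the log2 ratios as it is. The groups did not overlap in either ratio, and the differences of the log2 ratios were -0.44 and -0.48. The canonical partners fell less than the paralogs, RPL22 from 437 and 442 CPM to 375 and 369 CPM (log2 fold change -0.24, edgeR adjusted p = 0.0129) and RPL26 from 564 and 582 CPM to 425 and 390 CPM (-0.49, edgeR adjusted p = 1.04e-04). RPL36AL went the other way, from 41.6% and 43.1% of RPL36A to 61.4% and 61.5%, a log2 difference of 0.54. With the readthrough gene added to RPL36A that difference was 0.25, and the groups still did not overlap.

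The ratios of RPL7L1 to RPL7, RPL39L to RPL39 and RPS27L to RPS27 overlapped between groups, with log2 differences of -0.08, -0.01 and 0.05. RPL39, at the tunnel exit, went from 440 and 429 CPM to 380 and 367 CPM (log2 fold change -0.22, edgeR adjusted p = 0.0226) and RPS27 from 801 and 870 CPM to 713 and 676 CPM (-0.27, edgeR adjusted p = 0.0132). RPL3, which lies at the peptidyl transferase centre, fell from 666 and 684 CPM to 480 and 517 CPM (-0.44, edgeR adjusted p = 3.02e-04), with no RPL3L to set beside it.

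Levels between genes were compared per length, as TPM. In shCon the canonical members ran from 73.3 TPM (RPL37) to 4756 TPM (RPS27), with a median of 859 TPM. The highest means over all 4 libraries were those of RPS27 (4443 TPM), RPL41 (4325 TPM) and RPL13A (3877 TPM), and the lowest of any tested member off the Y chromosome those of RPL22L1 (43.4 TPM), RPL26L1 (56.3 TPM) and RPL39L (59.9 TPM). The order rests on the deposited length, which in 10 of the 77 canonical genes and in the paralogs RPL22L1 and RPS27L differed by over 2-fold from the canonical GENCODE transcript. For RPL37 (7573 bases) and RPL14 (7136 bases) both lengths were the same, which does not show that the cells made so long a transcript. By count RPL37 measured 264 and 291 CPM in shCon, beside a median of 392 CPM over the canonical members. Its place as the lowest in TPM thus rests on that length. RPS27 stood at 4756 ± 177 TPM in shCon and 4129 ± 373 TPM in shUBXN1, and RPL41 at 4529 ± 104 and 4121 ± 107 TPM (SD, n = 2 each).

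Chromosome 19 holds 12 canonical members. Of these 4 fell (among them RPL36, RPS15 and RPS28), RPS9 rose and 7 passed in neither direction, among them RPS19 and RPL13A, and the median log2 fold change was -0.08. Of the 65 on other chromosomes 48 fell and 3 rose, with a median of -0.31, where 28.2% of all genes tested fell and 28.0% rose. All 1146 tested genes of chromosome 19 had a median of 0.23, and 22.7% of them fell and 39.3% rose. The 12 genes also had more G and C, with a median of 56.0% against 46.7% in the other 65. Across the 77 canonical genes the log2 fold change and the GC content had a Spearman correlation of 0.34 (Pearson 0.28), and across 16830 genes one of 0.13 (Pearson 0.16). These are descriptions across genes, which share the same 4 libraries. The part of GC content in the difference between chromosomes was not tested.

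The canonical genes that carry a snoRNA gene within them, 28 of 77, fell in 18 cases and rose in 2. Their median log2 fold change was -0.23, beside 34 falls, 2 rises and a median of -0.31 among the 49 without one. Among all genes tested 28.2% fell and 28.0% rose. Ribosomal proteins also occur under other names. FAU, a fusion that yields a small subunit protein, measured 161 and 174 CPM against 146 and 160 CPM (-0.13, edgeR adjusted p = 0.174). RACK1, a scaffold on the small subunit, measured 481 and 517 CPM against 451 and 493 CPM (-0.08, edgeR adjusted p = 0.417). The groups of RACK1 overlapped and its sign changed with the scaling.

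As a share of each library, ribosomal protein genes took 3.64% and 3.79% of all counts in shCon and 3.37% and 3.29% in shUBXN1, a difference of -0.38 percentage points. Both knockdown libraries lay below both controls. The exact two-sided permutation test gave p = 0.333, the smallest that 2 against 2 libraries allow. Without the mitochondrial genome in the denominator the shares were 3.85% and 4.01% against 3.65% and 3.59%, so the groups stayed apart there too. The large subunit took 63.6% and 63.4% of the canonical counts in shCon and 62.9% in each of the shUBXN1 libraries.

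Genes that make and serve the ribosome were read from hand-written lists. Of 95 ribosome biogenesis genes 68 fell and 9 rose, with a median log2 fold change of -0.42, where 28.2% and 28.0% of all genes did. The largest falls were FBL, the methyltransferase of box C/D snoRNPs, from 306 and 326 CPM to 107 and 117 CPM (-1.49, edgeR adjusted p = 2.49e-09), and RPF2, which helps load the 5S particle, from 28.0 and 33.8 CPM to 13.6 and 13.2 CPM (-1.20, edgeR adjusted p = 6.83e-07). Both values lay below that of RPL6, a difference that was not tested. RRP12 and MDN1 rose (both 0.42).

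Of 40 genes of RNA polymerase I and 5S transcription, 23 fell and 7 rose, with a median of -0.25. This list and those that follow stand against 28.2% of all genes lower and 28.0% higher. The polymerase III subunits POLR3K (log2 fold change -0.94) and POLR3G (-0.83) fell, and POLR2L (0.84) and POLR2H (0.46), subunits shared among the polymerases, rose. Of 24 other TOP mRNAs 15 fell and 0 rose, led by HNRNPA1 (-1.10) and EIF3F (-0.79). Of 39 initiation factors 26 fell and 3 rose. Among them EIF4A1, the helicase of cap-dependent initiation, fell from 1060 and 1069 CPM to 510 and 576 CPM (-0.97, edgeR adjusted p = 3.42e-07) and EIF4G2 fell by 0.97, while EIF2B4 (0.65) and EIF1B (0.48) rose.

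Among all genes tested 28.2% fell and 28.0% rose, beside which the next 3 lists are set. Of 13 genes listed with elongation and termination, related proteins included, 7 fell (53.8%) and 2 rose (15.4%). EEF1B2 (log2 fold change -0.62) and EEF1E1 (-0.76) fell, whereas EEF1A2, the elongation factor isoform of muscle and neurons, rose from 137 and 142 CPM to 350 and 397 CPM (1.42, edgeR adjusted p = 5.82e-09), and GSPT2 rose by 0.42. Of 21 chaperones and clearance factors of orphan proteins, a list not limited to those of ribosomal proteins, 14 fell and 1 (HERC1, 0.37) rose. The largest falls were those of HGH1 (-1.14) and BCCIP (-0.81). Of 36 genes of ribosome quality control and rescue 13 fell (36.1%) and 8 rose (22.2%), with a median of -0.03. These shares lay near those of all genes, so the genes named next do not stand for the list. ASCC2 (log2 fold change -0.97) fell, and OTUD3 (1.51) and N4BP2 (1.01) rose.

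In 2 lists more genes rose than fell, beside 28.0% of all genes higher and 28.2% lower. Of 39 mTORC1 and TOP regulators 20 rose and 12 fell, with a median log2 fold change of 0.29. RRAGC, a Rag GTPase (0.88), and DEPDC5 (0.87) rose, while LAMTOR1, which anchors the Rag GTPases on the lysosome (-1.19), and CASTOR2 (-0.85) fell. Of 22 p53 and nucleolar stress readouts 10 rose and 6 fell, with a median of 0.26. TP53INP1 rose from 13.2 and 11.5 CPM to 49.6 and 47.9 CPM (1.98, edgeR adjusted p = 1.72e-09) and MDM4 rose by 0.70, while AEN (-1.35) and BAX (-0.65) fell. Both lists thus held genes past the threshold in each direction.

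The mitochondrial ribosome has its own set of nuclear-encoded proteins, named MRPL and MRPS. Of 78 such genes 54 fell and 2 rose, with a median log2 fold change of -0.45, where 28.2% of all genes fell and 28.0% rose. Over the 77 canonical cytosolic genes the counts were 52 and 4 and the median was -0.27. The difference between both sets was not tested.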

How the data were processed

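The authors deposited expected counts per gene for 4 libraries, given to 2 decimals and not normalized, with 1 gene length per gene. By the study's methods the reads were aligned with Hisat2 to GRCh38, TPM was calculated and limma was used; the submitters' processing notes name HISAT2 2.0.4, StringTie 1.3.0 and GRCh37. The tool that counted, the annotation and the use of strand are not given in the sources used here, which leaves overlapping genes and near-identical copies uncertain. The methods name a TruSeq kit and the labels a VAHTS kit. Of the values above 0 in a library, 62.4% to 64.6% were whole numbers.

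Counts were rounded, filtered with filterByExpr, scaled with TMM and fitted on the whole table by edgeR 4.0.16 in R 4.3.3 (glmQLFit, then glmQLFTest, with Benjamini-Hochberg adjustment), shUBXN1 against shCon with no block. CPM are TMM-scaled, and TPM were computed from counts and deposited lengths. Standard errors are the log2 fold change over the square root of F. Fits were tested on simulated counts. Shares were compared by exact permutation of libraries. Alternatives used DESeq2 1.42.0, limma 3.58.1, other scalings, filters, trends removed by loess (span 0.3), added pseudogene counts, a replicate block and each library left out.

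Symbols, exon overlaps, snoRNA genes and chromosomes came from GENCODE release 44 (hg38) by Ensembl ID, matched for 99.7% of IDs, and start sequences from RefSeq. The members, lists and tests were chosen with earlier results of these data known, and places in the ribosome after values were seen. Named were UBXN1, the paralogs and their partners, the 6 largest falls and rises per subunit among non-overlapping calls, members of known roles, the 3 highest and lowest levels, and per list the 2 largest falls and rises above a mean log2 CPM of 2; others were chosen after their values were seen. Some genes picked by this rule are not reported here.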

Additional observations from a re-analysis of the deposited data

How the results depend on the processing

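With 2 libraries per group the spread rests on sharing information across genes. The libraries held 23373700 to 27380508 counts, but genes with few counts had larger standard errors. That of RPL22L1 (213 to 368 counts) was 0.131 and that of POLR3G (52 to 129 counts) 0.265, against 0.072 to 0.090 for canonical members. With each library left out in turn, 32 to 67 members fell and 2 to 4 rose, 1 to 3 passed the fold change of 2 (1 without shUBXN1 replicate 1 and 3 without shCon replicate 2), the medians were -0.31 to -0.26 (large subunit) and -0.35 to -0.29 (small subunit), the list genes called numbered 172 to 242 (229 with all libraries), the share of counts differed by -0.45 to -0.31 percentage points, UBXN1 changed by -2.13 to -1.94, and 2 to 4 paralog ratios were lower without overlap (2 with all libraries, 3 without shCon replicate 2 and 4 without shUBXN1 replicate 2). In these fits a lone library is assumed to vary as the other group does. Members past a fold change of 2 numbered 0 with total count scaling, with scaling without ribosomal protein, pseudogene and mitochondrial counts, with the expression or length trend removed, with at least 10 counts in every library and with limma on log2(TPM + 1), and 1 with limma on log2(CPM + 1). With total count scaling the medians were -0.18 and -0.23 (large and small), with limma on log2(TPM + 1) -0.21 and -0.25, where 36 members fell, and with the expression trend removed -0.10 and -0.13, where 9 rose. Members that rose numbered 2 with the GC trend removed and with limma on log2(CPM + 1). The share of TPM differed by -0.92 percentage points. Same-numbered libraries deviated with a correlation of 0.039, so no shift shared by number was seen across genes. Whether they were cultured or prepared together is not given, and this value cannot decide it. With a replicate block 60 members fell and 4 rose, the medians were -0.27 and -0.31, UBXN1 changed by -2.03 and 232 list genes were called.

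Over the named genes 1210 values kept direction and call, 60 lost and 15 gained the call, and 11 changed sign, each of a gene not called with all libraries. RPS19 was 0.074 with total count scaling, 0.16 with the expression trend removed, 0.016 with at least 10 counts and 0.047 with limma on log2(TPM + 1). RPLP0 (0.052), RPLP2 (0.067) and RACK1 (0.096) turned positive with the expression trend removed, and RACK1 was 0.00258 with total count scaling. RPL13A was -0.031 to 0.032 with a library left out and -0.032 with the GC trend removed, and it was called higher at 0.20 with the expression trend removed. The causes were not tested.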

Other observations

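Ribosomal protein pseudogenes of any annotated type, 1599 in the table, took 1.74% ± 0.013 (SD, n = 2) of the counts on members and pseudogenes in shCon. In shUBXN1 they took 1.88% ± 0.0071, and both knockdown libraries lay above both controls. The largest sums were those of RPL23A pseudogenes (8639 and 8201 counts in shCon, 8183 and 8591 in shUBXN1) and RPL36A pseudogenes (4812 and 4419 against 3032 and 2746). The exact two-sided permutation test gave p = 0.333, the smallest possible. As a share of all counts the pseudogenes took 0.0643% and 0.0676% in shCon and 0.0646% and 0.0634% in shUBXN1, which overlapped. Adding them to their genes left 56 members lower and 4 higher.

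The readthrough genes did not follow the genes they cover in a common direction. RPL36A-HNRNPH2 rose (log2 fold change 0.35, edgeR adjusted p = 0.00572) where RPL36A fell, RPS10-NUDT3 fell (-1.03, edgeR adjusted p = 1.02e-05) by more than RPS10, and RPL17-C18orf32, at 32.7 and 38.9 CPM in shCon and 38.7 and 43.3 CPM in shUBXN1, did not pass (0.20, edgeR adjusted p = 0.105). RPSA2 fell (-0.58, edgeR adjusted p = 4.81e-04). How the deposited counts divide reads between such pairs is not given in the sources used here.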
